A study of Mus musculus with 24 samples.

Results

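The arrays of SCN and LGN, the tissues of the series sampled outside the eye, were compared with those of 5 tissues of the eye other than the retina. The tissue labels placed 6 arrays in the brain class (3 of SCN, 3 of LGN) and 15 in the ocular class (3 each of Cornea, Iris, Lens, Choroid and Sclera), that is 21 of the 24 arrays of the series. The 3 Retina arrays were left out of every test, since retina is neural tissue, and are given only as a reference. For each of the 1881 miRNAs on the array the signals of its probes were summed where they exceeded 3 times their error, and a miRNA was called detected on an array where at least 1 probe did so. Those higher or lower in brain were found by 1 test over all miRNAs that could be tested. The miRNAs described below were picked from its results by rule, in part from lists of cell types and families. These lists were chosen with earlier results of these data known.

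The mice were male C57BL/6J. Each tissue had 1 array in each of 3 lens groups: Control (no lens), 0D (a lens of 0 diopters) and Lens-induced, where a −30 diopter lens was fixed to the right eye at 3 weeks of age and worn for 3 weeks. RNA of 3 mice was pooled for an array of normal and −30 diopter ocular tissue. The methods used here do not describe the sampling of SCN and LGN or the 0D arrays, so their pooling is not given in the sources used here. The labels give SCN and LGN only as abbreviations. In studies of the visual system they usually stand for the suprachiasmatic and the lateral geniculate nucleus, and they were checked below only as nervous tissue. The sample labelled Choroid was taken as the retinal pigment epithelium and choroid of the methods. The 3 arrays of a tissue thus served as its replicates and differed in lens group, and nothing states that they came from separate animals other than by group. Each slide held all 8 tissues of 1 lens group, so slide cannot be told apart from lens group, but every difference between tissues could be read within each slide.

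A miRNA is a short RNA that pairs with messenger RNAs, mainly through its seed (bases 2 to 8 from the 5′ end), and lowers their translation or stability. Many miRNAs are made in only a few kinds of cell. miR-124, miR-128, miR-9 and miR-129 are typical of neurons, miR-219 and miR-338 of myelin-forming oligodendrocytes, and a large imprinted cluster between Dlk1 and Dio3 is active chiefly in brain. Outside the nervous system, miR-200 and miR-205 mark epithelium, miR-199 and miR-214 mark mesenchyme, miR-133 and miR-1 mark striated muscle, and miR-204 and miR-211 mark pigmented epithelium. miR-184 is abundant in corneal epithelium and lens.

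Mature sequences were read from RefSeq (build GRCm38.p6), in which 274 of the 329 miRNAs tested had an entry. Those of the brain-enriched miRNAs on which the results turn are shown first, with the seed in capitals, to show which members share a seed.
miR-128-3p: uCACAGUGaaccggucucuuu
miR-9-3p: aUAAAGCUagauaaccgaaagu
miR-132-3p: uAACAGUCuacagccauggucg
miR-212-3p: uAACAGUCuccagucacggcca
miR-219a-5p: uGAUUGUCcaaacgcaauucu
miR-338-3p: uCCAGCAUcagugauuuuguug
miR-7a-5p: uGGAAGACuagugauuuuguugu
miR-7b-5p: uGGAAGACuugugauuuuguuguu
miR-434-3p: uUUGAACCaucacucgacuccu
miR-127-3p: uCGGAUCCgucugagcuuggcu
miR-29a-3p: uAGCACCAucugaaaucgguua
miR-29b-3p: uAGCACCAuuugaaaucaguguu
miR-29c-3p: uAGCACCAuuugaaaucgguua
miR-132-3p and miR-212-3p have the same seed and lie on chromosome 11 at chr11:75173723-75173744 and chr11:75173443-75173464, outside any other annotated gene. miR-128-3p has a copy within R3hdm1 (chr1:128202404-128202424) and one within Arpp21 (chr9:112118644-112118664), both protein-coding. miR-434-3p (chr12:109594565-109594586) and miR-127-3p (chr12:109592888-109592909) lie within the span of Rtl1 in the imprinted cluster. miR-29b-3p and miR-29c-3p are paired on chromosome 1 within the long non-coding gene A330023F24Rik, and a further copy of miR-29b-3p is paired with miR-29a-3p on chromosome 6.

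The brain-depleted miRNAs shown next are some of those described below, among them groups that share a seed.
miR-184-3p: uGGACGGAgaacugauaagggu
miR-204-5p: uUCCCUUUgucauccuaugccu
miR-211-5p: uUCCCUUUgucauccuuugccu
miR-130a-3p: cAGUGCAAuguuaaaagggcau
miR-133b-3p: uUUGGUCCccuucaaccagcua
miR-199a-3p: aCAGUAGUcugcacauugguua
miR-183-5p: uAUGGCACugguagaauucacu
miR-96-5p: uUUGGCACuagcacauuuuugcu
miR-200b-3p: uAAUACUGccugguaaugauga
miR-200c-3p: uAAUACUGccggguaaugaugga
miR-429-3p: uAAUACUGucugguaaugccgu
miR-205-5p: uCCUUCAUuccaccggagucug
miR-204-5p lies within Trpm3 (chr19:22750610-22750631) and miR-211-5p within Trpm1 (chr7:64205831-64205852), genes of 1 channel family, and the miRNAs share a seed. miR-184-3p (chr9:89802263-89802284) and miR-205-5p (chr1:193507503-193507524) lie outside other annotated genes. miR-183-5p and miR-96-5p lie together on chromosome 6 in the long non-coding gene Mirc35hg, and 1 copy of miR-199a-3p lies within Dnm3 on chromosome 1. Among the brain-enriched miRNAs with a RefSeq sequence, 63 carried 57 different seeds, and among the brain-depleted ones 46 carried 41. None of the seeds that recurred among the enriched miRNAs was also found among the depleted ones: the seeds of miR-29, of miR-7, of miR-132 with miR-212, of miR-103 with miR-107 and of miR-34 recurred only among enriched miRNAs, and those of miR-200b with miR-200c and miR-429, of miR-204 with miR-211, of miR-148a with miR-152 and of miR-20a with miR-20b only among depleted ones. A seed found in both directions was that of miR-130a-3p, which was lower in brain, and miR-301a-3p, which was higher (1.65).

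The test compared the mean of the SCN and LGN tissue means with the mean of the 5 ocular tissue means. Arrays were brought to 1 common 75th percentile, taken over the 79 miRNAs that every array detected, values under a common floor of 9.93 scaled units were raised to it, and log2 values were fitted with limma, with 14 residual degrees of freedom from the 3 arrays of each tissue. A miRNA was called where the Benjamini-Hochberg adjusted p was below 0.05 and the difference was at least 1 on the log2 scale. Of 329 miRNAs tested, 72 were higher in brain (21.9%) and 54 lower (16.4%). The median difference over all tested was 0.
The detected number of miRNAs was 225 to 249 on brain arrays and 129 to 239 on ocular arrays, a difference of 47.97 between the means of the tissue means. An exact two-sided permutation test over tissues gave p = 0.0952, where the 21 possible assignments allow no less than 0.0476. Lens (129 to 149) and Cornea (137 to 172) had the fewest. Their signals were scaled up by 1.27 to 1.65 and 0.69 to 0.98 on the log2 scale, against −1.01 to 0.36 for the other tissues, so the lowest signal that could be seen was highest there. The median SD between the 3 arrays of a tissue was 0.114 (Iris) to 0.226 (Sclera) on the log2 scale, over miRNAs detected on all 21 arrays. As these are bulk samples, fewer cells of a type and less RNA per cell cannot be told apart.

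**Figure D1:**
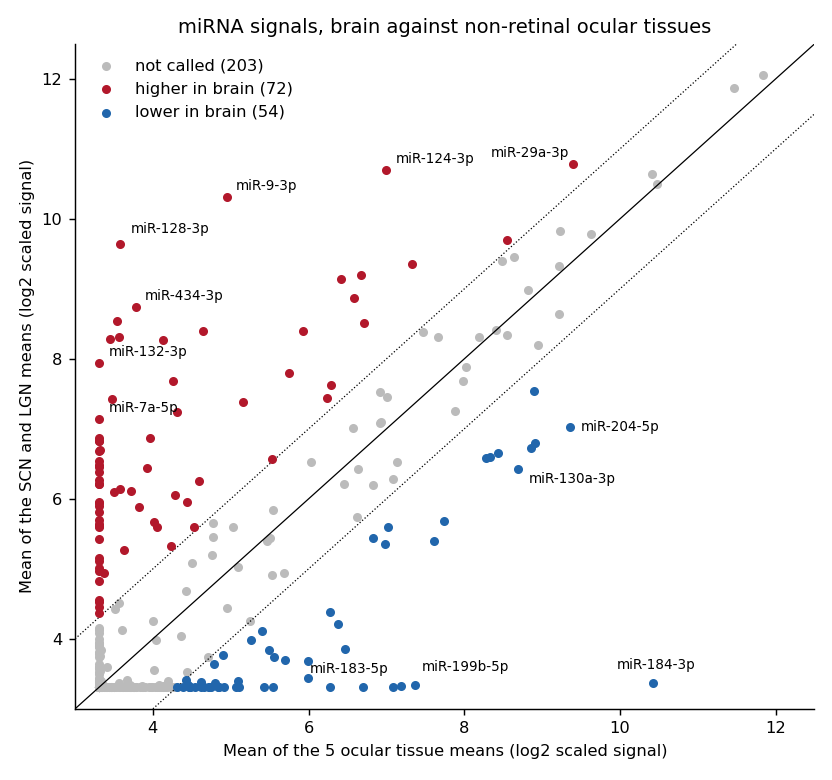
Each point is 1 of 329 tested miRNAs, with the mean of the 5 ocular tissue means on the x axis and the mean of the SCN and LGN means on the y axis (log2 of the scaled signal, raised to the floor). The solid line marks equality and the dotted lines a difference of 1; the 72 miRNAs called higher in brain (red) rise along the left side, many at the ocular floor, and the 54 called lower (blue) lie below the lines, with miR-184-3p farthest out.

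The brain-enriched set was broad. All 72 miRNAs had the same sign on each of the 3 slides, and 70 were at least 2-fold higher on each. The calls were made on these same slides, so this agreement is not separate support. In 55 of them the 6 brain arrays lay above all 15 ocular arrays, a pattern seen in 59 of all tested miRNAs (17.9%). Against each of the 5 ocular tissues taken alone, 54 passed the same thresholds (16.4% of all tested), and a further 11 passed against 4 tissues. For many of the 54 every ocular mean lay at the floor, as for miR-219a-5p (3.55 against each tissue). For those the 5 comparisons repeat 1 number and add nothing to the first call. 18 of the 72 were detected on no ocular array and 16 on all 21 arrays. Where a miRNA sat at the floor in several tissues its spread there was 0 or nearly so, which makes the standard error too small. That concerns the 86 called miRNAs that were not detected on every array, and also some that were detected but below the floor, such as miR-3082-5p in SCN and LGN and miR-574-5p in LGN. The p-values measure only the spread among 3 arrays of a tissue. A fit that took the tissues themselves as the random unit (tissue as a random block) called 60 higher and 14 lower. With only 1 mean per tissue, 41 were called higher and 5 lower, and 38 of the 59 called miRNAs named by rule were lost. Among those lost were miR-184-3p (adjusted p 0.142 in that fit), miR-199b-5p (0.2), miR-183-5p (0.168), miR-96-5p (0.167), miR-133b-3p (0.12), miR-29b-3p (0.104) and miR-9-3p (0.0504). Called miRNAs named by rule that the random-block fit did not call are given below with its adjusted p. For others that are mentioned, such as miR-494-3p and let-7e-5p, its result is not given.

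Neuronal miRNAs were high on every brain array. Of 18 tested members of a neuronal list (of 20 on the array), 16 were called higher and none lower, with a median difference of 2.92. Over all tested miRNAs the median was 0, and 21.9% were called higher and 16.4% lower. The counts of the later lists are to be read against the same shares. A member detected on no ocular array entered the test only through brain and could not be called lower, as with miR-137-3p and miR-153-3p here. Likewise, a member detected on no brain array could not be called higher. miR-128-3p had the largest difference in favour of brain, 6.07 ± 0.19 (SE, adjusted p = 3.17e-14). Its scaled signal was 516, 920 and 1073 at the lowest, the median and the highest of the 6 brain arrays, and at most 28 on the 11 ocular arrays that detected it. miR-9-3p ranged from 1049 to 1417 in brain. On ocular arrays it reached 153 to 191 in Choroid and 102 to 112 in Sclera, was at most 19.9 in Cornea and Iris and was not detected in Lens, and the difference was 5.37 ± 0.15 (adjusted p = 5.16e-15). Brain and ocular arrays did not overlap for either miRNA.

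A further 6 miRNAs of high brain signal were detected on all brain arrays and on no ocular array, so each has only a bound. These were miR-219a-5p (at least 10.01-fold higher in brain), miR-487b-3p (at least 9.85-fold), miR-551b-3p (at least 8.04-fold), miR-153-3p (at least 7.79-fold), miR-137-3p (at least 7.26-fold) and miR-433-3p (at least 6.46-fold). miR-137 and miR-153 are known from neurons, where miR-153 targets proteins of synaptic vesicle release. miR-137-3p was 165 to 173 in SCN and 34.1 to 49.5 in LGN, and it was not detected in Retina either. miR-153-3p was 140 to 154 in SCN and 48.8 to 65 in LGN. miR-149-5p, also on the neuronal list, was detected everywhere, at 77.9 to 289 in brain and 15.2 to 27.9 in ocular tissue, with a difference of 2.93 ± 0.08 that varied little between tissues (2.61 against Iris to 3.16 against Choroid).

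The neuronal miR-124-3p differed unevenly between ocular tissues. It was 1396, 1563 and 2111 at the lowest, the median and the highest brain array, and 11.6, 309 and 985 over the ocular arrays. The difference was 3.70 ± 0.26 (adjusted p = 1.2e-09; adjusted p 0.0642 with tissue as a random block). Against Cornea and Iris it was 6.15 and 6.31, but 2.83 against Lens, 2.04 against Sclera and 1.16 against Choroid. Retina held more than brain, 10200 to 11410.
miR-183-5p and miR-96-5p, miRNAs of photoreceptors and other sensory cells, were set beside it. As a percent of the retina mean, miR-124-3p was 9.22, 6.78 and 5.34 in the Control, 0D and Lens-induced arrays of Choroid, and miR-183-5p was 9.95, 6.5 and 5.75. In Sclera miR-124-3p was 5.5, 3.24 and 3 percent, and miR-183-5p 7.28, 2.79 and 3.62. In Lens they were 0.983, 2.89 and 3.65 percent against 0.85, 2.01 and 2.97. In Iris neither passed 0.313 percent. In Cornea miR-124-3p was 0.189 to 0.246 percent, below miR-183-5p at 0.842 to 0.974 and miR-96-5p at 1.78 to 2.2. In brain, miR-124-3p was 13.1 to 19.8 percent of the retina mean, whereas miR-183-5p was at most 0.0908 percent and miR-96-5p was not detected on any of the 6 arrays. The part of retinal RNA in the ocular values was not tested. miR-9-3p differed from both: it was 19.1 to 23.8 percent of the retina mean in Choroid, 12.7 to 14 percent in Sclera, and undetected in Lens.

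**Figure D2:**
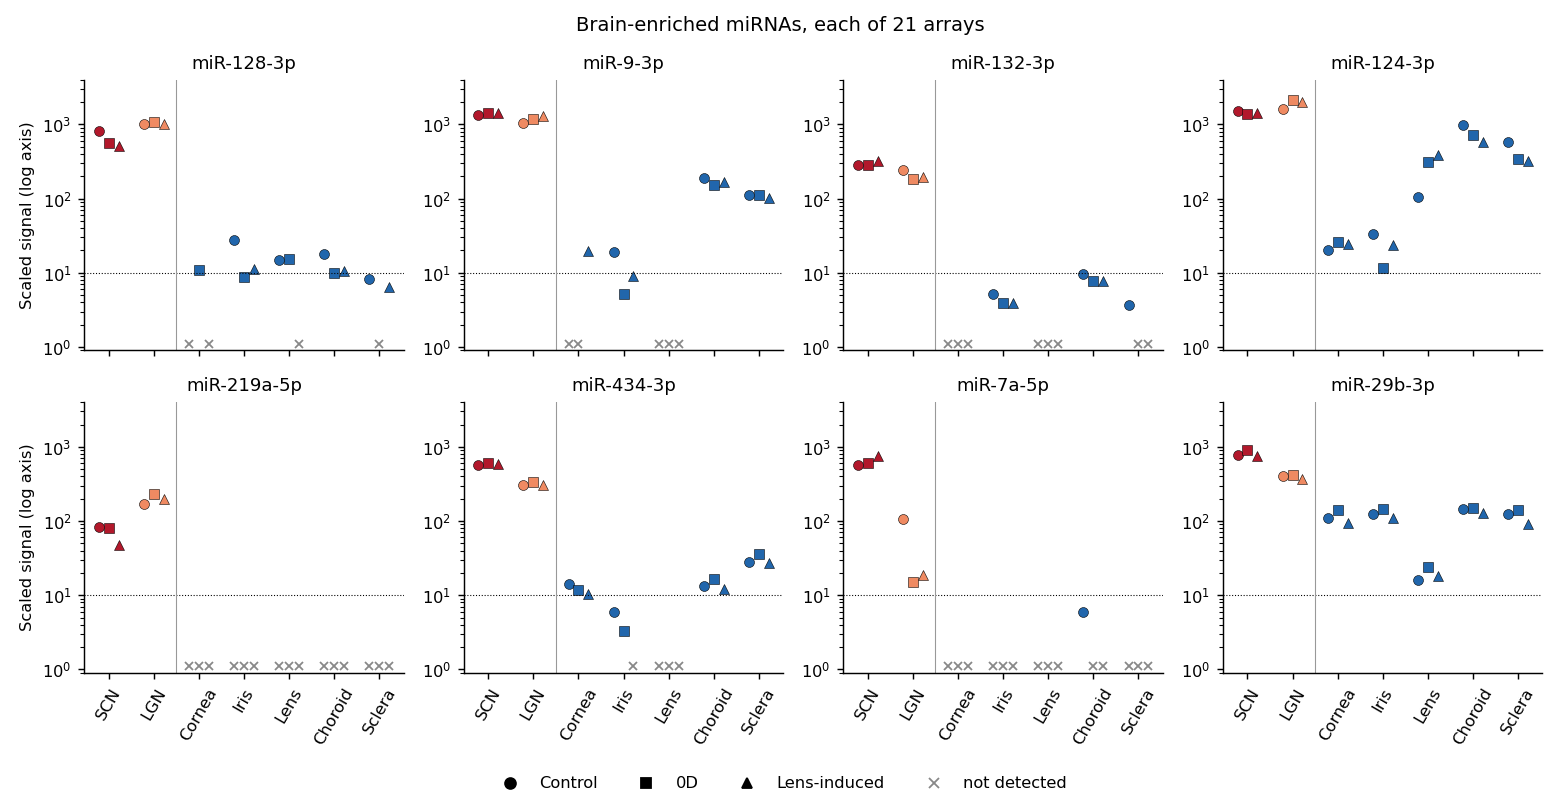
Scaled signal on a log axis of 8 brain-enriched miRNAs on each of the 21 arrays, by tissue; the symbol gives the lens group, red and orange are SCN and LGN, blue the ocular tissues, grey crosses at the bottom are arrays without detection, and the dotted line is the floor of 9.93. miR-128-3p and miR-132-3p are far above every ocular tissue, whereas miR-124-3p reaches 985 in Choroid and miR-7a-5p separates SCN from LGN.

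miRNAs that follow neuronal activity and those of oligodendrocytes were also higher. miR-132-3p, which is induced by activity through CREB, was 183 to 320 in brain, and its 7 detected ocular values were at most 9.65, below the floor. Its difference of 4.63 is therefore the distance of the brain mean from the floor. miR-212-3p, from the same transcript and with the same seed, did not follow it. It was 32.3 to 50.5 in brain, 16.9 to 22.4 in Cornea and 126 to 127 in Lens, so its call (1.09 ± 0.04; adjusted p 0.252 with tissue as a random block) joined a value below Lens by 1.66 with values above the other tissues. The difference was 0.82 without the SCN arrays and 0.86 without those of Iris, Choroid or Sclera.
All 3 tested miRNAs of the oligodendrocyte list were higher in brain (median 3.55). miR-338-3p was 168 to 643 in brain against at most 51.5 in ocular tissue, a difference of 3.76 ± 0.13 (adjusted p = 1.73e-13). miR-219a-5p was 47.9, 126 and 234 at the lowest, the median and the highest brain array, and miR-219a-2-3p was 25.1 to 128 (at least 5.38-fold higher). With the neuronal markers these are the measurements that bear on the labels SCN and LGN. The summed signal of the neuronal list was 4758 to 5689 on the brain arrays and 52.5 to 1286 on the ocular arrays, and that of the oligodendrocyte list 241 to 992 against 0 to 51.5.

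The miRNAs of the imprinted Dlk1-Dio3 cluster formed the largest group. Of 40 tested members (63 on the array), 20 were called higher in brain, 1 was called lower, and the median was 0.95. Many of the 40 were detected on no ocular array, such as miR-487b-3p and miR-433-3p. Those entered the test only through brain arrays and could not be called lower. The 20 called higher were also called against each of the 5 ocular tissues. Where a member lay at the floor in all 5, such as miR-487b-3p (3.515 against each), this repeats the main difference and adds no test. Over all tested miRNAs 21.9% were called higher, and 16.4% against each of the 5 tissues. Given how members entered the test, the counts cannot be read as an excess over these shares. RefSeq placed 18 of the 20 between chr12:109591729 and chr12:109743784. miR-434-3p was 302 to 601 in brain, and at most 35.5 in ocular tissue, where Sclera held most (26.8 to 35.5) and Lens gave no detection. Its difference was 4.96 ± 0.07 (adjusted p = 8.98e-19). miR-127-3p was 200 to 482 in brain and 49.5 to 56.6 in Sclera, a difference of 4.14, and miR-154-5p was 141 to 293 against 50.6 to 63.2 in Sclera, a difference of 3.43. Over the whole list the summed signal was 1661 to 4099 in brain, 306 to 363 in Sclera and at most 146 in the other ocular tissues. miR-494-3p was the exception. It lay lower in brain by 1.82 on the log2 scale, was highest in Sclera, and was chosen for mention after its value was seen.

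Among miRNAs detected on all 21 arrays, the enriched ones with no overlap included miR-29b-3p and miR-29c-3p, of a family known to target collagens and to rise as neurons mature. miR-29b-3p was 372 to 894 in brain, 90.1 to 149 in 4 of the ocular tissues and 15.9 to 24.3 in Lens, with a difference of 2.73 ± 0.11 (adjusted p = 8.43e-13). miR-29c-3p was 493 to 871 in brain and 78.9 to 285 in ocular tissue, a difference of 2.03 ± 0.07. The third member behaved otherwise: miR-29a-3p was 1242 to 2353 in brain, but up to 1278 in ocular tissue and only 90.8 to 128 in Lens. Its difference of 1.38 was 0.72 without the Lens arrays, and its adjusted p was 0.132 with tissue as a random block. miR-342-3p was higher by 2.52 ± 0.13 and miR-331-3p by 2.05 ± 0.08, both against each ocular tissue. miR-107-3p (2.29 ± 0.08) and miR-361-5p (2.23 ± 0.07) came closest to brain in Iris, where the former differed by only 0.87.

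The other lists that could mark cells of brain samples gave mixed counts. The array held 5 ciliated-cell miRNAs, of which 2 were tested. These, miR-34b-5p and miR-34c-5p, were both higher, by 2.91 and 2.55 (adjusted p 0.0533 and 0.0502 with tissue as a random block). Lens had the highest ocular mean for both, and brain exceeded it by 1.05 and 1.47. The ocular values of miR-34b-5p reached 60.2 and overlapped those of brain. Those of miR-34c-5p were at most 26.0, with no overlap. miR-34b-5p was 145, 114 and 347 in SCN and 56.4, 51.2 and 153 in LGN for Control, 0D and Lens-induced, so the Lens-induced array was highest in both tissues; with 1 array a group that difference has no test. miR-451a of red blood cells was higher by 1.52 (adjusted p 0.0554 with tissue as a random block), at 56.3 to 75.6 in brain and up to 59.4 in ocular tissue, while miR-223-3p of myeloid cells was lower by 1.42 (adjusted p 0.19 in that fit). The endothelial miR-126a-3p was 160 to 215 in brain. Its ocular values ran from no detection in Lens to 1030 to 1203 in Choroid, and the difference of 0.60 was not called.

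**Figure D3:**
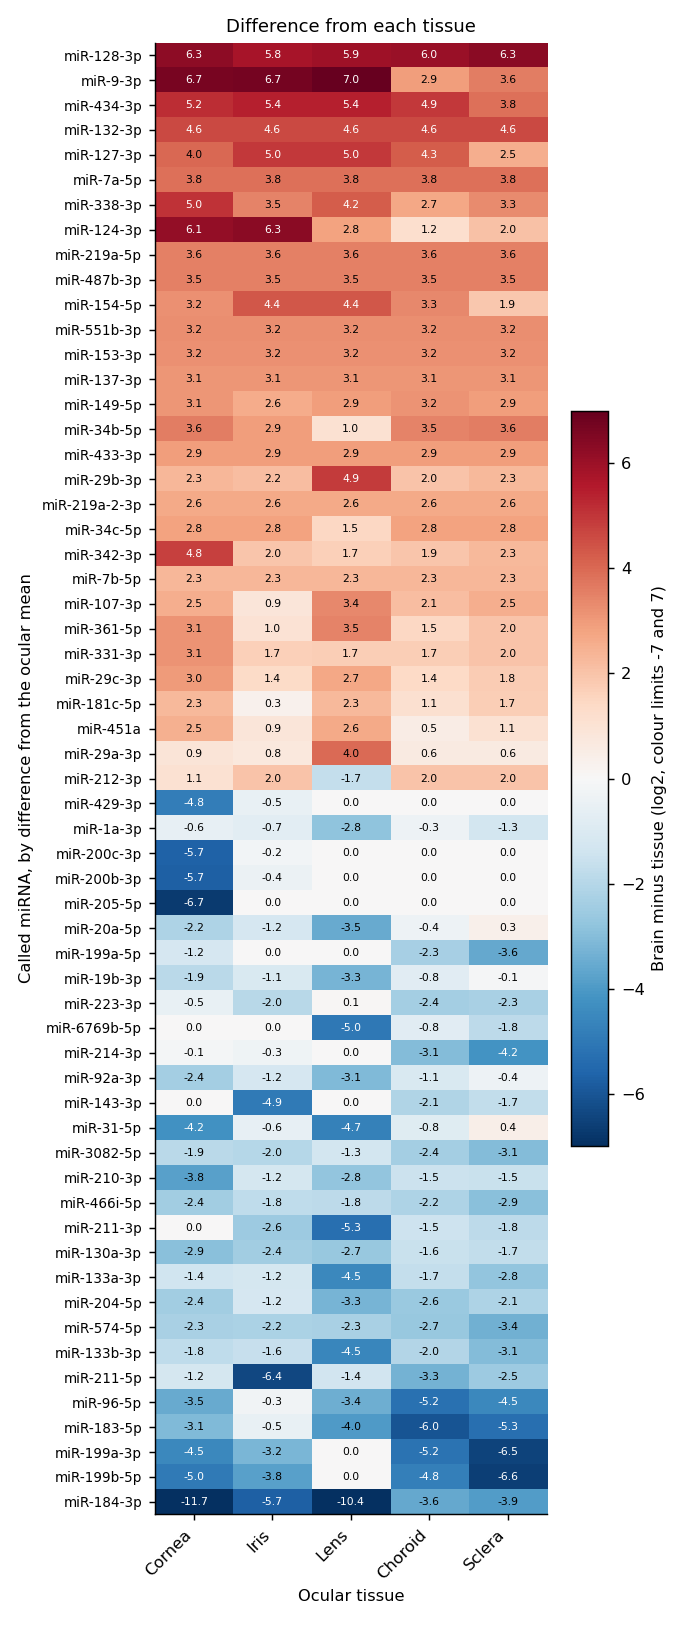
Brain mean minus the mean of each ocular tissue (log2, values printed in the cells, colour limits −7 and 7) for the 59 called miRNAs named by rule, ordered by the difference from the ocular mean. The enriched miRNAs are red in nearly every column, while the depleted ones are often blue in only 1 or a few columns: Cornea for miR-205-5p and the miR-200 family, Lens for miR-6769b-5p, Sclera and Choroid for miR-214-3p.

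The brain-depleted set was less uniform across the eye. Of the 54 miRNAs called lower, 10 passed against each of the 5 ocular tissues (3.04% of all tested), 18 against 4, 13 against 3, 7 against 2 and 6 against 1. The 6 brain arrays lay below all 15 ocular arrays for 11 of them, and for 13 of all tested miRNAs (3.95%). All 54 had the same sign on each slide and 43 were at least 2-fold lower on each, on the same slides from which they were called. The ocular tissue with the highest mean was Lens for 22, Cornea and Sclera for 13 each, and Iris and Choroid for 3 each. 11 of the 54 were detected on no brain array and 24 on all 21 arrays.

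miR-184-3p had the largest difference in this direction, −7.06 ± 0.15 (adjusted p = 2.41e-16). It was detected on 2 of the 6 brain arrays, at 12.3 in SCN and 4.19 in LGN, both of the Lens-induced group. It was 29710 to 36850 in Cornea, 11130 to 16390 in Lens, 505 to 550 in Iris, 99.7 to 147 in Choroid and 111 to 275 in Sclera. Every ocular array was above every brain array, although the ocular tissues spanned more than the brain-ocular gap itself: brain was lower by 11.66 than Cornea and by 3.60 than Choroid. Retina was 32.6 to 70.6.

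The pair with the shared seed, miR-204-5p and miR-211-5p, was lower in brain but differed in where the ocular signal lay. miR-204-5p was 92.7, 123 and 196 at the lowest, the median and the highest brain array. It was 288 to 304 in Iris, 520 to 881 in Cornea, Choroid and Sclera, and 1198 to 1349 in Lens, a difference of −2.33 ± 0.12 (adjusted p = 1.47e-11). miR-211-5p was detected on 3 brain arrays, at no more than 4.51, and was 772 to 906 in Iris, 71.9 to 128 in Choroid, 48.4 to 75 in Sclera and at most 43.3 in Cornea and Lens. Its difference was −2.96 ± 0.20 (adjusted p 0.0671 with tissue as a random block). The opposite arm of the hairpin, miR-211-3p, had another pattern. It was detected on no brain array and was highest in Lens, where it was 326 to 432 and brain was at least 52.2-fold lower, against 49.0 to 77.1 in Iris (difference from the ocular mean −2.23, adjusted p 0.0642 with tissue as a random block). The cause of this difference between arms was not tested. Of 4 tested miRNAs of the pigment-cell list, 3 were called lower (median −2.28), against 16.4% of all tested.

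Besides miR-204-5p, the depleted miRNAs detected on all 21 arrays with no overlap were miR-133b-3p, miR-574-5p, miR-130a-3p, miR-466i-5p, miR-210-3p and miR-3082-5p. miR-130a-3p, known from endothelium and blood vessel growth, was 48.9 to 63.2 in LGN, 128 to 137 in SCN and 240 to 707 in ocular tissue. Its difference of −2.26 ± 0.06 (adjusted p = 2.41e-15) varied from −1.58 against Choroid to −2.92 against Cornea. miR-210-3p, which is induced by low oxygen, was 9.27 to 30.2 in brain, 36.9 to 64.7 in Iris, Choroid and Sclera, 116 to 143 in Lens and 221 to 317 in Cornea. Its difference was −2.17 ± 0.16 (adjusted p 0.0515 with tissue as a random block). Retina, at 514 to 676, held more than any tissue of the comparison.
miR-574-5p (−2.56), miR-466i-5p (−2.22) and miR-3082-5p (−2.12) varied by lens group as well as by tissue. In Cornea miR-574-5p was 25, 63.4 and 88 in Control, 0D and Lens-induced, miR-466i-5p was 135, 232 and 372, and miR-3082-5p was 15.7, 47.8 and 64.8. Sclera showed the same order, with miR-466i-5p at 166, 343 and 558. Over all ocular tissues the order was another. Brain minus ocular in Control, 0D and Lens-induced was −2.22, −2.77 and −2.695 for miR-574-5p. It was −1.75, −2.61 and −2.30 for miR-466i-5p, and −1.58, −2.405 and −2.37 for miR-3082-5p. The adjusted p of miR-574-5p, miR-466i-5p and miR-3082-5p with tissue as a random block was 0.0651, 0.141 and 0.219.

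Of the striated-muscle miRNAs, miR-133b-3p, miR-133a-3p and miR-1a-3p were lower in brain and highest in Lens. miR-133b-3p was 4.26 to 12.4 in SCN, 17.7 to 24.5 in LGN, 41.5 to 57.7 in Cornea and Iris, 44.6 to 170 in Choroid and Sclera, and 325 to 355 in Lens. The difference was −2.60 ± 0.14 (adjusted p = 4.82e-11). miR-133a-3p differed by −2.31 and was 267 to 315 in Lens. miR-1a-3p was 65.3 to 77.7 in Lens and at most 39.3 in the other ocular tissues, and its difference of −1.16 was −0.74 without the Lens arrays (adjusted p 0.43 with tissue as a random block). In all, 3 of 4 tested striated-muscle miRNAs were called lower (16.4% of all tested), with a median of −1.74, and miR-206-3p (−0.15) was not called. Of the smooth-muscle list 1 of 2 was called, as miR-145a-5p (−0.16) was not. miR-143-3p was lower by 1.76 on the log2 scale. It was 304 to 310 in Iris, which holds the pupil muscles, and 24.1 to 44.6 in Choroid and Sclera, was undetected in Cornea and Lens, and its difference was −0.96 without the Iris arrays (adjusted p 0.137 with tissue as a random block and all arrays).

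**Figure D4:**
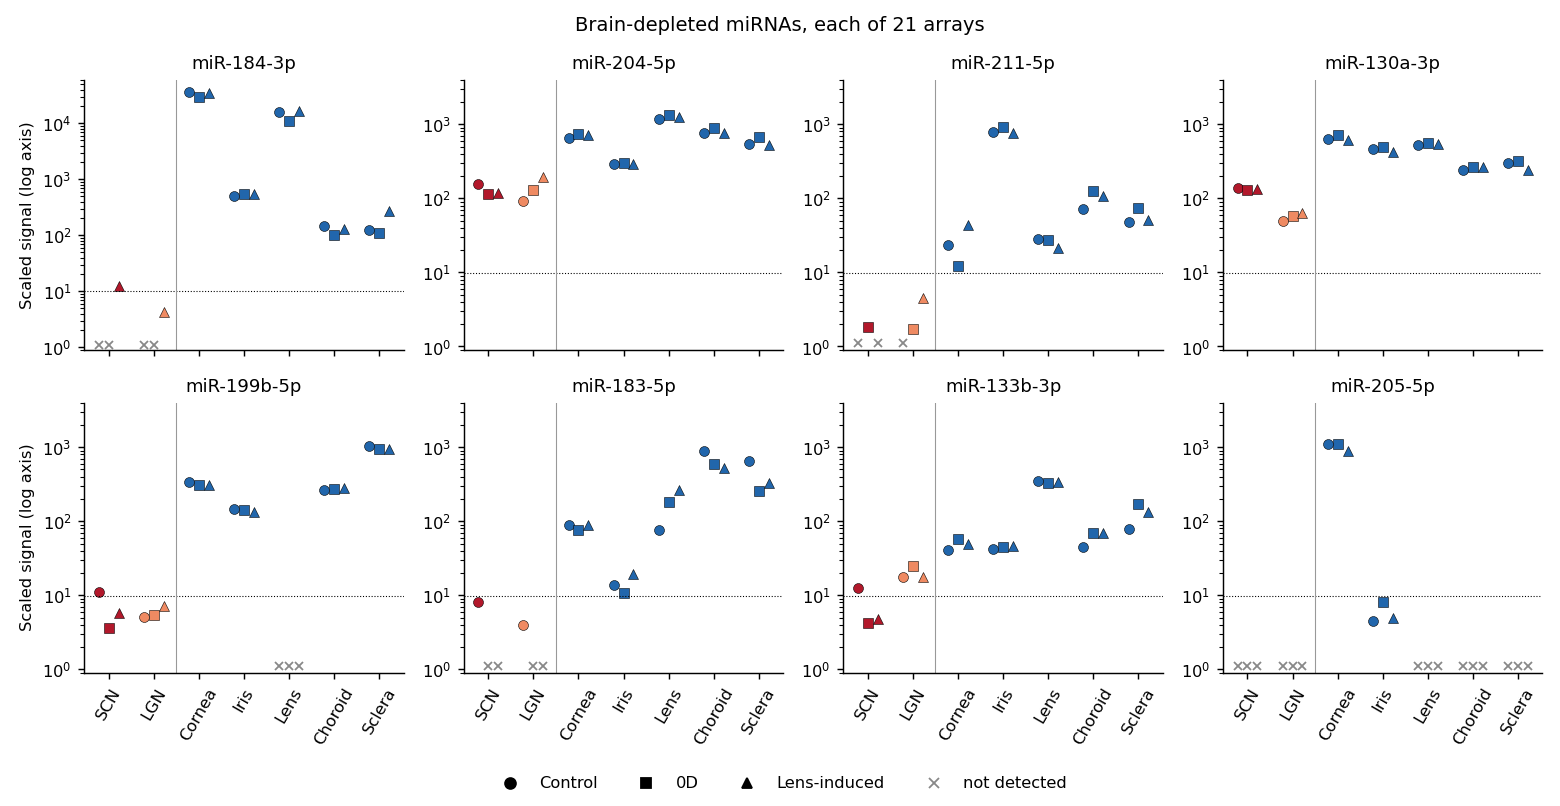
Scaled signal on a log axis of 8 brain-depleted miRNAs on each of the 21 arrays, with symbols, colours and floor as in the plot of the enriched miRNAs (the miR-184-3p panel has a wider axis). miR-184-3p, miR-204-5p, miR-211-5p, miR-130a-3p, miR-183-5p and miR-133b-3p are below every ocular array in brain. miR-199b-5p is undetected in Lens and detected at 3.59 to 11.1 in brain, and miR-205-5p reaches 895 to 1108 in Cornea but at most 8.06 elsewhere.

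All 4 tested mesenchymal miRNAs were lower in brain (median −2.70), and all were absent from Lens. miR-199b-5p was 3.59 to 11.1 in brain and 950 to 1052 in Sclera, 308 to 339 in Cornea, 267 to 283 in Choroid and 134 to 149 in Iris, a difference of −4.02 ± 0.03 (adjusted p = 1.29e-21). miR-199a-3p was 832 to 929 in Sclera and at most 10.5 in brain, a difference of −3.87. miR-199a-5p and miR-214-3p, which share the Dnm3os transcript, were not detected on any brain array. In Sclera miR-214-3p was 153 to 203 and brain was at least 24.8-fold lower; for miR-199a-5p the bound was 16.4-fold. Their differences from the ocular mean were −1.54 and −1.41, and −0.88 and −0.86 without the Sclera arrays (adjusted p 0.171 and 0.105 with tissue as a random block). The summed signal of the list was 3.59 to 21.6 in brain, 0 in Lens and 2048 to 2266 in Sclera.

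Epithelial miRNAs were depleted against Cornea. Of the miR-200 list 3 of 5 tested members were called lower (16.4% of all tested), and none was detected on any brain, Lens, Choroid, Sclera or Retina array. miR-205-5p was 895 to 1108 in Cornea, where brain was at least 142-fold lower, and at most 8.06 in Iris. miR-200b-3p was 495 to 543 in Cornea (at least 71.6-fold), miR-200c-3p was 455 to 545 (at least 68.9-fold) and miR-429-3p was 266 to 302 (at least 38.3-fold). In Iris these last 3 were 8.90 to 19.0. Without the Cornea arrays the differences were 0 for miR-205-5p, −0.11 for miR-200b-3p, −0.05 for miR-200c-3p and −0.14 for miR-429-3p, so their calls rested on that tissue. With tissue as a random block their adjusted p was 0.481, 0.455, 0.479 and 0.456. miR-31-5p, also of stratified epithelium, was 211 to 273 in Cornea and 321 to 370 in Lens, and was found in LGN (11.0 to 23.8) but not in SCN (difference −2.005; adjusted p 0.168 with tissue as a random block).
miR-6769b-5p, named because no brain array detected it, was 278 to 389 in Lens, and its difference of −1.52 was −0.65 without the Lens arrays (adjusted p 0.275 with tissue as a random block).

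Of the 3 tested photoreceptor miRNAs 2 were called lower in brain although the retina had been left out. The other, miR-182-5p, differed by −0.95 and was not called. miR-183-5p was 520 to 900 in Choroid, 253 to 658 in Sclera, 76.9 to 268 in Lens, 76.1 to 88.1 in Cornea and 10.6 to 19.3 in Iris, and its 2 detected brain values were 8.21 and 3.97. The difference was −3.77 ± 0.23 (adjusted p = 2.89e-10). miR-96-5p differed by −3.38 ± 0.21, and brain was at least 49.8-fold lower than Choroid, while the bound against Iris was 1.60-fold. Retina held 8510 to 9710 of miR-183-5p and 5009 to 6105 of miR-96-5p, above every ocular tissue compared here. The percent values above apply to these results too, and the part of retinal RNA was not tested.

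Members of the miR-17/92 family, known for their role in proliferating cells, were lower in 4 of 9 tested cases (median −0.99), with Lens highest. Over all tested miRNAs 16.4% were called lower. miR-92a-3p was 30.2 to 60.5 in brain, 47.8 to 56.7 in Sclera and 327 to 385 in Lens (−1.63 ± 0.07). miR-19b-3p was 39.4 to 53.3 in brain and 462 to 466 in Lens, and its difference of −1.42 was −0.96 without the Lens arrays (adjusted p 0.0622 with tissue as a random block). miR-20a-5p was 35.2 to 57.0 in brain and 436 to 533 in Lens (−1.38, and −0.84 without Lens; adjusted p 0.171 with tissue as a random block). Brain and Sclera overlapped for all 3.
Other families differed little. 1 of 9 let-7 members was called higher (let-7e-5p, 1.15, chosen for mention after its value was seen) and the median was 0.23, none of 5 miR-30 members was called (median 0.16), and 1 of 4 miR-181 members was higher (miR-181c-5p, 1.55). Of the inflammation-linked miRNAs none of 4 was called (median −0.05), nor was any of 3 cartilage and matrix miRNAs (median −0.31). Of these lists without a call, limma gave an unadjusted p below 0.05 for 3 of 5 miR-30 members, 2 of 4 inflammation-linked and 2 of 3 cartilage and matrix miRNAs, at differences of no more than 0.51 in size. The share of such p-values over all tested miRNAs is not given here, so these counts cannot be read as an excess. The 5 miRNAs of the HOX clusters were not detected on any of the 21 arrays. miR-764-5p, from an intron of the serotonin receptor gene Htr2c, was detected on all 6 brain arrays and on no ocular array, but at 1.66 to 4.42, below the floor.

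SCN and LGN differed from each other for 48 miRNAs (14.6% of all tested), 42 of them higher in SCN. Which miRNAs were called depended on the scaling: 23 of the 48 were also called without scaling and 21 with quantile normalization. Among the 72 enriched miRNAs 30 were higher in SCN and 4 in LGN, and among the 54 depleted ones 2 were higher in SCN. miR-7a-5p, known from neurosecretory cells, showed the widest gap: it was 572, 608 and 756 in SCN and 106, 15.2 and 18.8 in LGN for Control, 0D and Lens-induced, so the Control array of LGN stood apart from the other two. miR-7b-5p followed, at 164 to 185 in SCN and 31.0, 3.97 and 4.45 in LGN. Its enrichment against ocular tissue (2.33) was 0.55 without the SCN arrays (adjusted p 0.0565 with tissue as a random block). Of 3 tested members of the neurosecretory list, these 2 were called higher in brain and none lower. The other, miR-375-3p, went the other way, at −0.44, and was not called. It was detected on 2 brain arrays, below the floor, and was 43.9 to 46.6 in Lens. In the Dlk1-Dio3 list 19 of 40 tested members were higher in SCN and none in LGN, and the summed signal was 3795 to 4099 in SCN and 1661 to 1798 in LGN. The oligodendrocyte list went the other way, with all 3 tested members higher in LGN and summed signals of 678 to 992 against 241 to 372.

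**Figure D5:**
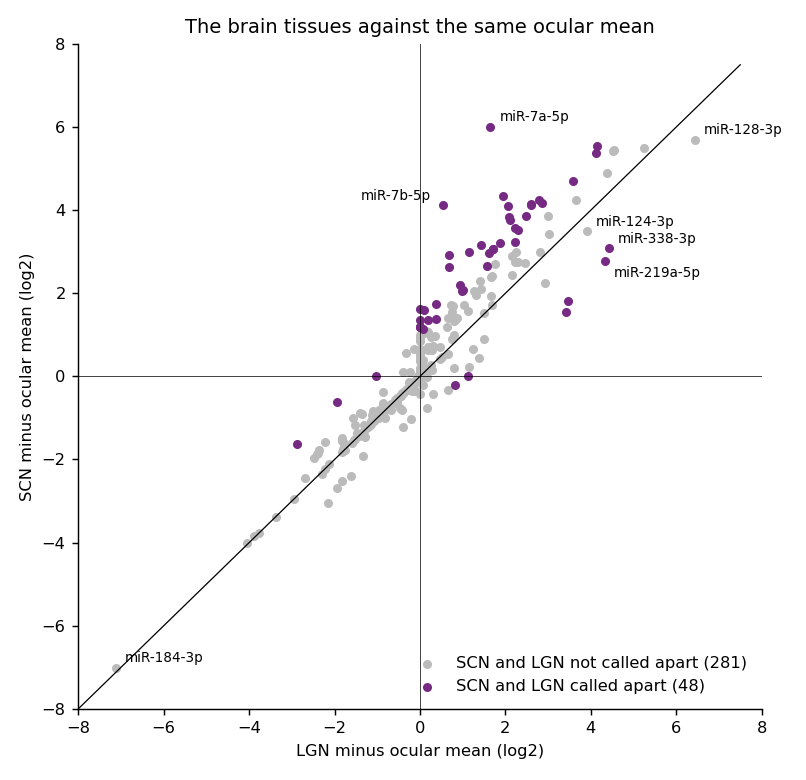
Difference of each brain tissue from the same ocular mean (log2) for the 329 tested miRNAs, LGN on the x axis and SCN on the y axis; the line marks equality and purple points are the 48 miRNAs called different between SCN and LGN. Most of these lie above the line at positive values, led by miR-7a-5p and miR-7b-5p, and miR-219a-5p and miR-338-3p lie below it.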

How the data were processed

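Total RNA (100 ng) was labelled with Cy3 and hybridised to Agilent mouse miRNA arrays. The authors deposited scanner files from Agilent Feature Extraction 10.7.1.1, whose probe signals are intensities. Those files were read here; the deposited table of normalized values was not used here. Of the signals (scaled as given in the report) log2 values were tested with limma 3.58.1 in R 4.3.3 (tissue means, eBayes with trend), and tables were made with Python 3.11.15. miRNAs were tested where detected on all 3 arrays of at least 1 tissue; 389 were detected on at least 1 of the 21 arrays. No spot was saturated. The fit was tested on simulated data. The number of arrays limits the precision.

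Named were, among called miRNAs detected on all 21 arrays without overlap of brain and ocular arrays, the 8 highest and 8 lowest (7 existed). Added were the 6 strongest detected only in brain, the 6 strongest detected on no brain array, and up to 3 members of each of 25 lists. The members, lists and tests were chosen with earlier results of these data known. A bound uses, per array, the higher of the lowest detected signal and 3 errors of that miRNA's probes. Alternatives covered scaling, floor, background, filter, the unit of replication and omission of arrays or tissues.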

Additional observations from a re-analysis of the deposited data

Results flagged for a closer look

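SCN and LGN were tested against each other within the same fit, and 18 of the named miRNAs differed by at least 1 on the log2 scale with an adjusted p (limma) below 0.05. SCN minus LGN was 4.36 for miR-7a-5p (adjusted p = 7.76e-07) and 3.57 for miR-7b-5p (2.36e-08), the pair with a shared seed. It was 2.04 for miR-137-3p, 1.65 for miR-149-5p and 1.38 for miR-153-3p among neuronal miRNAs. For the imprinted cluster it was 1.35 (miR-433-3p), 1.32 (miR-487b-3p) and 1.13 (miR-127-3p). miR-34c-5p (1.34) and miR-34b-5p (1.24, adjusted p = 0.0164) were also higher in SCN, as were miR-130a-3p (1.25), miR-181c-5p (1.08), miR-140-3p (1.054) and miR-29b-3p (1.01). The miRNAs higher in LGN were miR-219a-2-3p (−1.65), miR-219a-5p (−1.54) and miR-338-3p (−1.34) of oligodendrocytes and miR-181b-5p (−1.12). The difference in miR-7a-5p was smallest on the Control slide, where LGN held 106 scaled units. No cause was tested.

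The Control array of LGN had a miR-19b-3p signal of 39.41, apart from the other brain arrays, which ran from 47.63 to 53.3. Of 56 miRNAs tested for such a distant array this was the only 1 found, and chance gives about 1 in 20.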

How the results depend on the processing

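Over 41 settings the 59 called miRNAs named by rule did not change direction: they kept direction and threshold in 2283 of 2379 values and missed the threshold in 96, 38 of them with 1 mean per tissue and 26 with tissue as a random block. The planned fit of every miRNA on the array could not be fitted, as most values were identical; the alternative of miRNAs detected on at least 1 of the 21 arrays was chosen after seeing the data and gave 72 and 54. With no scaling the median over miRNAs detected on all 21 arrays moved to 0.48, and with quantile normalization to −0.43. The lens group as a block changed no count. The cause of the following shifts was not tested.

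miRNAs higher in brain (72) numbered 147 with undetected values at 0.1, 16 with only miRNAs detected on all 21 arrays, 39 with the normexp background and 41 with 1 mean per tissue. Unscaled, 106 were higher, the original 72 among them, and 61 were lower, of which 47 were among the original calls. Those lower (54) numbered 82 with quantile normalization, 114 with undetected at 0.1, 110 at their own limit, 24 with detection on all 21, 14 with tissue as a random block, 5 with 1 mean per tissue and 19 at a difference of at least 2. The share of higher calls was 57.1% and became 63.5% unscaled, 48.1% (quantile), 38.9% (own limit), 44.8% (normexp), 40% (detection on all 21), 71.6% (a difference of 2), 81.1% (tissue as a random block) and 89.1% (1 mean per tissue). Leaving out 1 array gave 71 to 72 higher and 52 to 56 lower.
Against each ocular tissue, higher (54) became 99 at 0.1, 40 (own limit), 7 with detection on all 21, 16 with normexp and 34 at a difference of 2. Unscaled it was 67, of which 51 were among the original calls. Lower (10) became 5 unscaled, of which 3 were among the original calls. It became 18 (quantile), 27 (own limit), 16 without Cornea, 4 with retina added and 2 at a difference of 2. SCN against LGN (48) became 81, 6, 21 and 5 with undetected at 0.1, detection on all 21, normexp and a difference of 2; it was 48 unscaled, of which 23 were among the original calls, and 35 with quantile normalization, of which 21 were.

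Of the 80 named miRNAs, those that reversed were not called ones. Unscaled, miR-140-5p was 0.44, miR-21a-5p 0.26 and miR-30a-5p 0.35. With quantile normalization let-7b-5p was −0.43, let-7c-5p −0.31, let-7a-5p −0.023, miR-30d-5p −0.26 and miR-181b-5p −0.0077. With undetected at 0.1 miR-375-3p was 0.24, miR-140-5p 0.37 and miR-140-3p 1.70. With normexp miR-126a-3p was −0.33, let-7b-5p −0.0069 and miR-30d-5p −0.15. Without SCN miR-21a-5p was 0.16; without LGN miR-140-5p was 0.10 and miR-140-3p 0.014; without Cornea miR-126a-3p was −0.039 and miR-21a-5p 0.20. Without Lens miR-126a-3p was −0.30, let-7b-5p −0.21 and miR-30d-5p −0.18; without Choroid miR-140-5p was 0.24; without Sclera it was 0.48 and miR-140-3p 0.076. With retina added miR-30d-5p was −0.036. Leaving out 1 array gave −0.037 to 0.066 for let-7b-5p.

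Only 3 arrays stand for a tissue, and differences among the 5 ocular tissues set how far a call reaches beyond them. Lens and Cornea arrays had the highest detection limits, so absence there is a weaker statement.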
